A study of Mus musculus with 6 samples.

Results

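The interferon regulatory factor genes Irf1, Irf3, Irf7 and Irf9 and the interferon-stimulated genes Ifit1, Ifit3, Isg15, Oasl2, Rsad2 and Usp18 are described here in HT22 cells with and without induction of Klf13. The 10 genes were chosen by symbol, and all 10 were found among the 29493 genes in the deposited counts. HT22 cells are an immortalised neuronal line of mouse hippocampal origin. The line used, HT22-TR/TO-V5Klf13-1, carries V5-tagged KLF13, a DNA-binding protein with zinc fingers from the Krüppel-like factors, under control of the tet repressor, which doxycycline inactivates. These cells received 1 µg/ml doxycycline (Dox, n = 3 libraries) or vehicle (n = 3 libraries), and total RNA was taken at 8 hours. All 6 libraries carry the transgene. Without doxycycline-treated cells that lack it, effects of KLF13 and of the drug cannot be told apart.

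Interferon regulatory factors (IRFs) are transcription factors that start and carry the interferon response. IRF3 and IRF7 are activated when a cell senses foreign nucleic acid and switch on interferon genes. Secreted interferon then binds its receptor, and the kinases JAK1 and TYK2 activate STAT2, which joins IRF9 in the complex ISGF3. ISGF3 binds the interferon-stimulated response element (ISRE) in front of interferon-stimulated genes (ISGs), whose products block viral replication. IRF1 is itself induced by interferon through the gamma-activated site (GAS).

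Promoter sequences of these genes are shown first because the ISRE is the site through which ISGF3 is known to act, so that its presence can be set beside the measurements. RefSeq windows on GRCm38.p6, from 250 bases before to 50 bases after an annotated start, were given for 9 of the 10 genes, 11 windows in all. No window was given for Usp18, so its promoter was not searched for any motif. The ISRE core was searched on both strands as GAAA, any 2 bases, GAAA. It was found in 4 windows, those of Ifit1, Ifit3, Isg15 and Rsad2, against 3.44% of all 32851 promoter windows of the same length. On the other strand it reads TTTC, any 2 bases, TTTC. Capitals mark the ISRE core in the first 4 sequences below, read 5′ to 3′ in the direction of the gene. In the Irf1 sequence they mark the GAS, searched as TTCNNNGAA. In the Irf3 sequence they mark the GC box (GGGCGG, reverse complement CCGCCC) and the GT box (CACCC, reverse complement GGGTG), motifs of the kind that Krüppel-like factors are known to bind.
Ifit1 chr19:34640744-34640888 plus strand: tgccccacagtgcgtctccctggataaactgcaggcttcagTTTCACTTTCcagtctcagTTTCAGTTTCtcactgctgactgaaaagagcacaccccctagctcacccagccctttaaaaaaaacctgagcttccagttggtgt
Ifit3 chr19:34583279-34583528 plus strand: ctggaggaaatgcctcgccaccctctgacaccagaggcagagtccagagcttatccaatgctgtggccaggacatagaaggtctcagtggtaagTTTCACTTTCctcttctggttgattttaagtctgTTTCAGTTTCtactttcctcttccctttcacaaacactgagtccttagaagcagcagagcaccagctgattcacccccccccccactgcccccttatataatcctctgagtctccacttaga
Isg15 chr4:156200867-156200906 minus strand: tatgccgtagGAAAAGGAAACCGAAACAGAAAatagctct
Rsad2 chr12:26456543-26456582 minus strand: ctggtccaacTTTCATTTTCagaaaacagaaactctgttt
Irf1 chr11:53769914-53769953 plus strand: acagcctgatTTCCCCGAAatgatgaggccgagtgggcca
Irf3 chr7:44997568-44997647 plus strand: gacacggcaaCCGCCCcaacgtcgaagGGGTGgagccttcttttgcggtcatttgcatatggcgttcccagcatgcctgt

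Ifit1 and Ifit3 each held 2 ISRE cores with the same letters, TTTCACTTTC and then TTTCAGTTTC, at positions -104 to -95 and -85 to -76 from the start of Ifit1 and at -156 to -147 and -122 to -113 from that of Ifit3. Isg15 held 3 overlapping cores between -78 and -57, and Rsad2 held 1 at -120 to -111. The GAS letters were found in 1 of the 11 windows, that of the first Irf1 start, at -90 to -82, and in 8.3% of all windows. The GC box was in 4 of the 11 windows, those of 3 genes (Irf1, Irf3 and Irf9), and in 35.7% of all windows. The GT box was in 9 of the 11 windows, those of 8 genes, and in 57.5% of all windows. Matches of the GC and GT boxes may overlap, and each was counted. A match is a description of the letters in the window and not a measured binding site.

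**Figure D1:**
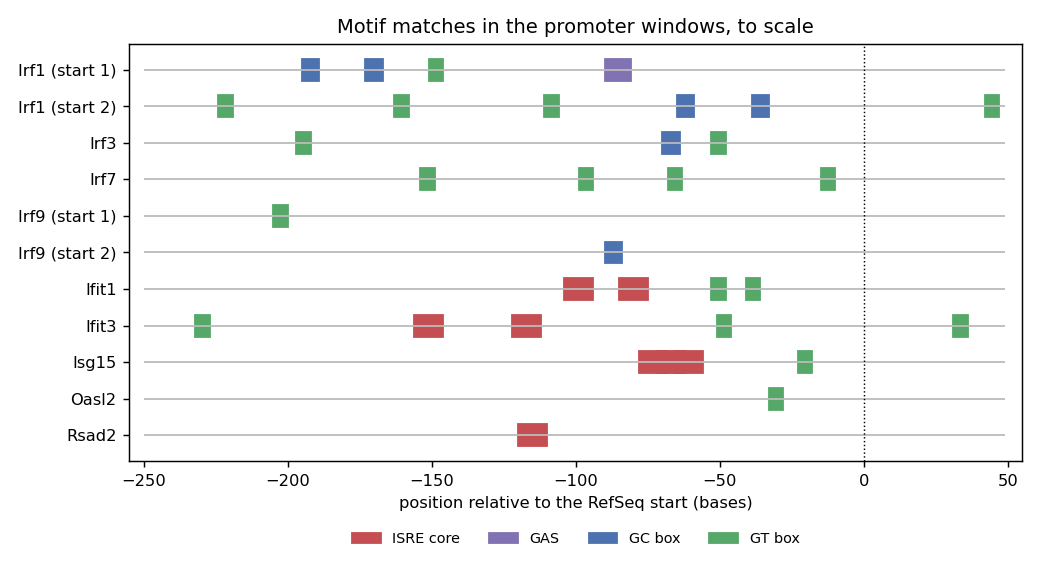
Matches to the 4 motifs in the 11 RefSeq promoter windows of 9 genes, plotted by distance in bases from the annotated start (dotted line at 0); boxes are drawn to scale, and overlapping Isg15 matches merge. ISRE cores (red) appear in Ifit1, Ifit3, Isg15 and Rsad2, and the only GAS (purple) in the first Irf1 window.

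Total counts per library ranged from 38566798 to 52930384, and transcripts of the mitochondrial genome took 3.67 to 3.86% of counts in every library. Klf13, the induced gene, stood at 36.1 to 39.1 CPM (the usual unit of counts scaled to library size) with vehicle and at 184 to 205 CPM with Dox. Of 10 neuronal markers, 6 were listed and 5 had enough counts to be tested. Of these 4 were lower with Dox (Tubb3, Eno2, Syn1 and Dlg4), and the summed level of the list went from 95.5 to 96.6 CPM with vehicle to 31.9 to 33.2 CPM with Dox. Rbfox3, Snap25, Nefl and Nefm had no row, and Map2, with 2 to 10 counts, was too low to be tested. Of 10 markers of immune cells 6 were listed, 3 could be tested and 1, Ptprc, was higher. Their summed level was 7.71 to 8.62 CPM with vehicle and 9.75 to 11.5 CPM with Dox, mostly Ptprc and Cd68, with Itgam and Cx3cr1 at 0 counts in some libraries. Fibroblast markers were abundant, mainly the collagen genes Col1a1, Col1a2 and Col3a1, which were the 3 called lower of 5 tested (2 with upper-quartile scaling), with 0 higher. Their summed level was 9883 to 10414 CPM with vehicle and 8089 to 8473 CPM with Dox. Of 6 astrocyte markers 2 could be tested and 1, Slc1a3, was higher, with summed levels of 73.5 to 203 CPM with vehicle and 56.1 to 219 CPM with Dox. These counts of markers stand beside 54.7% of all genes tested that were called with Dox, 25.9% higher and 28.8% lower. The part of these markers' cells or changes in the results was not tested. In bulk RNA a change in the number of expressing cells and a change in RNA per cell cannot be told apart. Nothing in the labels tells if replicates were grown separately, and p-values therefore cover only the spread seen among these libraries, possibly a technical one.

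With Dox, Irf3, Ifit1 and Ifit3 rose and Usp18 fell, and Irf1, Irf7, Irf9, Isg15 and Oasl2 did not pass the test. Of the 9 genes with enough counts to be tested, 3 were higher and 1 was lower at an adjusted p under 0.05 (edgeR's quasi-likelihood test over all genes). The background is high: 54.7% of the 18067 genes tested were called, 25.9% higher and 28.8% lower. Of all genes called 47.4% were higher, and 58.4% under upper-quartile scaling. The 44.4% of the interferon set is not above that background. Dox and vehicle libraries did not overlap for 5 of the 9 genes, 3 with Dox above and 2 with Dox below, against 64.0% of all genes tested (31.8% above and 32.2% below). Over the 9 genes the log2 fold change had a median of -0.13, against 0.018 over all genes tested. That median moved with the vehicle library left out: it was -0.0048 without vehicle replicate 1, -0.069 without replicate 3 and -0.20 without replicate 2. Without Dox replicate 1, 2 or 3 it was -0.11, -0.093 and -0.14. It was also -0.040 with upper-quartile scaling and 0.13 over the 5 genes with a mean CPM of at least 5. With DESeq2 the median over the 9 genes was the value of Irf9, -0.14. A median of -0.014 arises there only when Rsad2, which had too few counts to be tested, is included.

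**Figure D2:**
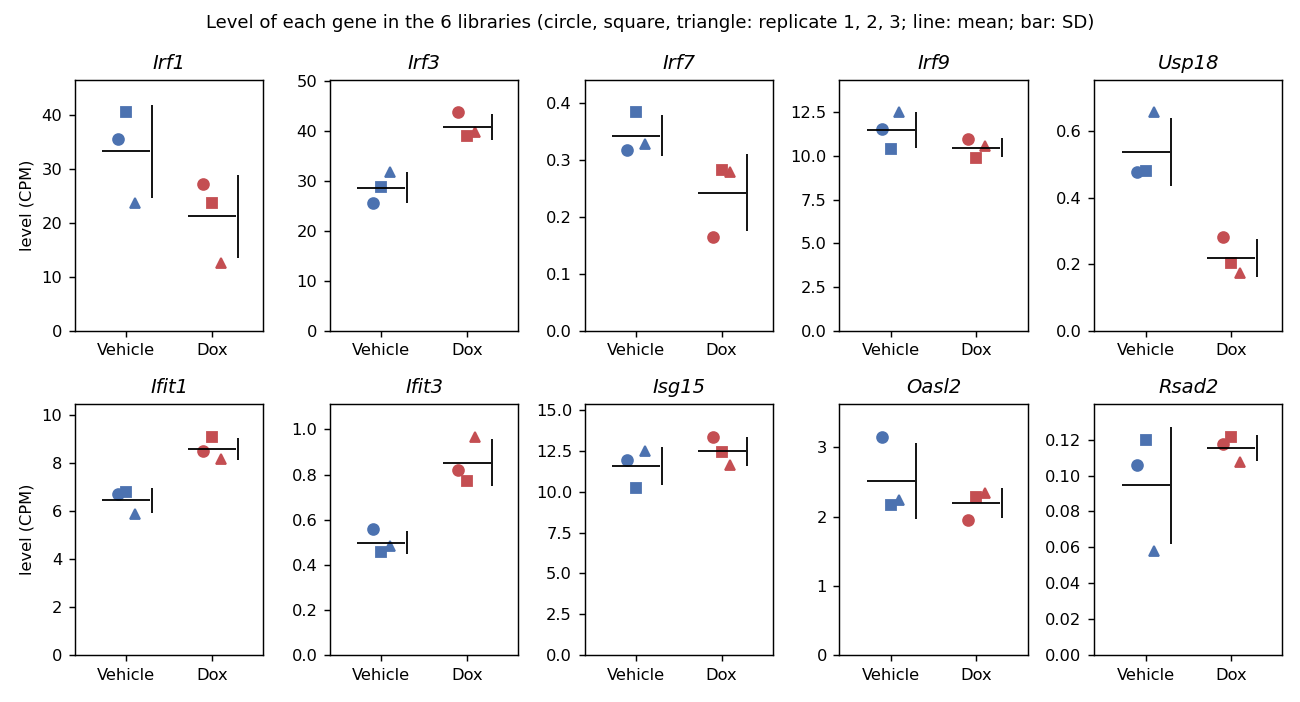
Level of each of the 10 genes in CPM (linear axis from 0, scaled per gene) in the 3 vehicle (blue) and 3 Dox (red) libraries; symbols give the replicate number, lines the mean and bars the SD. Irf3, Ifit1 and Ifit3 are higher in every Dox library than in any vehicle library, Usp18 and Irf7 are lower in every Dox library, and the third replicate of Irf1 is the lowest of its group on both sides.

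Irf3, the latent factor that sensors of foreign nucleic acid activate, rose 1.42-fold. It stood at 25.4, 28.6 and 31.7 CPM in vehicle replicates 1, 2 and 3 and at 43.6, 39.0 and 39.6 CPM in the Dox replicates. Every Dox library was above every vehicle library. The means were 28.6 ± 3.12 and 40.7 ± 2.53 CPM (SD, n = 3 each), a log2 fold change of 0.51 ± 0.089 (SE, edgeR adjusted p = 0.0029). Irf3 lies on chromosome 7, 44997648 to 45002848, plus strand (GRCm38, GENCODE M21). Its exons share 88 bases with those of Bcl2l12, a gene on the opposite strand whose product is a BCL2 relative, and it is not known whether strand was used in counting. Bcl2l12 had a mean of 12.7 ± 0.283 CPM in Dox and 11.6 ± 0.831 CPM in vehicle libraries (SD, n = 3 each, edgeR adjusted p = 0.13) and was looked up after the Irf3 values were seen.

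Irf7, the factor that amplifies type I interferon production, was close to the limit of measurement, with 12, 16 and 17 counts with vehicle and 7, 14 and 13 with Dox. In CPM every Dox library (0.164, 0.284 and 0.279) was below every vehicle library (0.318, 0.384 and 0.328). The test was not passed (log2 fold change -0.48, 95% interval -1.13 to 0.16, edgeR adjusted p = 0.20). Irf7 shares 45 exonic bases with Phrf1 on the opposite strand, and it is not known whether strand was used in counting. Phrf1 was far more abundant, at 53.3 to 63.1 CPM with vehicle and 57.9 to 87.1 CPM with Dox. Its share in the few Irf7 counts was not tested. Irf9, the DNA-binding subunit of ISGF3, had 11.6, 10.4 and 12.5 CPM with vehicle and 11.0, 9.91 and 10.6 CPM with Dox. The groups overlapped and the log2 fold change was -0.13 (95% interval -0.33 to 0.062, edgeR adjusted p = 0.21). Irf9 shares 123 exonic bases with Rnf31 on the same strand, so counts of the pair may be shared. Irf7 lies on chromosome 7, 141262706 to 141266481, minus strand, and Irf9 on chromosome 14, 55603571 to 55610030, plus strand. Rnf31 itself fell (log2 fold change -0.21 ± 0.049 SE, edgeR adjusted p = 0.011).

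Irf1, an early-response factor that activates class I antigen presentation and other interferon genes, had the highest coefficient of variation of the 9 tested genes. It stood at 35.6, 40.5 and 23.7 CPM in vehicle replicates 1, 2 and 3 and at 27.2, 23.7 and 12.6 CPM in Dox replicates 1, 2 and 3. Replicate 3 was the lowest of both groups, and the groups overlapped. The means were 33.3 ± 8.65 and 21.2 ± 7.68 CPM (SD, n = 3 each), a log2 fold change of -0.65 ± 0.32 (SE, 95% interval -1.43 to 0.13, edgeR adjusted p = 0.14). The biological coefficient of variation of Irf1 was 27.9%, where the median over 4889 genes within 2-fold of its level was 7.8%, and 97.7% of those genes varied less. Without Dox replicate 3 the log2 fold change of Irf1 was -0.38 (adjusted p = 0.24), and without vehicle replicate 3 it was -0.85 (adjusted p = 0.081). Irf1 lies on chromosome 11, 53770014 to 53778374, plus strand, and shares 135 exonic bases with Gm17334 on the opposite strand.

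Ifit1 and Ifit3 encode tetratricopeptide-repeat proteins that bind viral RNA or form the complex that does so, and both rose. For Ifit1 the vehicle libraries held 6.68, 6.77 and 5.84 CPM and the Dox libraries 8.48, 9.08 and 8.15 CPM. The groups were apart, with means of 6.43 ± 0.511 and 8.57 ± 0.472 CPM (SD, n = 3 each). This was a rise of 1.33-fold, or 0.42 ± 0.078 on the log2 scale (SE, edgeR adjusted p = 0.0043). Ifit3 had 21, 19 and 25 counts with vehicle and 35, 38 and 45 with Dox. The Dox libraries were all above the vehicle libraries, at 0.853 ± 0.102 against 0.498 ± 0.0521 CPM (SD, n = 3 each). Ifit3 rose by 1.71-fold, or 0.78 ± 0.16 on the log2 scale (SE, edgeR adjusted p = 0.0058). The DESeq2 Wald test ended the call of Ifit3 (log2 fold change 0.78, adjusted p = 0.096). Ifit1 lies on chromosome 19, 34640871 to 34650009, and Ifit3 on the same chromosome, 34583531 to 34588731, both on the plus strand. Ifit3 also has a near-identical neighbour, Ifit3b, with which it can share reads.

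The relatives of Ifit1 and Ifit3 were higher as well. The count data list 6 Ifit genes, and all 6 were tested and called higher with Dox, where 25.9% of all tested genes were, and this family was put together after its values were seen. Ifit2 rose from 30.6 to 31.7 CPM over the vehicle libraries to 39.9 to 41.1 CPM with Dox (log2 fold change 0.38 ± 0.034 SE). Ifit1bl1 and Ifit1bl2, genes like Ifit1, had log2 fold changes of 1.34 ± 0.12 and 1.12 ± 0.19 (SE), from 18 to 34 counts per library with vehicle to 49 to 81 with Dox. Ifit3b stood at 13 to 15 counts with vehicle and 23 to 27 with Dox (0.75 ± 0.17). Its call was lost with DESeq2 (adjusted p = 0.21) and without vehicle replicate 3 (log2 fold change 0.66, edgeR adjusted p = 0.063). The 6 genes were higher under TMM, DESeq2 size factors and upper-quartile scaling alike. Ifit1 and Ifit1bl2 lie head to head on chromosome 19, with 127 bases between their GENCODE starts, and both ISRE cores of the Ifit1 sequence above lie in that stretch. Near-identical copies make the split of counts among these genes uncertain.

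Oasl2, a relative of the oligoadenylate synthetases that sense double-stranded RNA, did not pass either. Its vehicle libraries held 3.15, 2.16 and 2.24 CPM and its Dox libraries 1.95, 2.29 and 2.34 CPM. Vehicle replicate 1 was the highest, the groups overlapped, and the log2 fold change was -0.19 (95% interval -0.60 to 0.22, edgeR adjusted p = 0.38). Without vehicle replicate 1 it was -0.0048 (edgeR adjusted p = 0.99). Oasl2 lies on chromosome 5, 114896936 to 114912234, plus strand. Its relatives were grouped after their values were seen. Of 10 Oas and Oasl genes listed, 6 were tested. Of these 4 were higher (Oas1a, Oas1b, Oas1g and Oasl1), 0 were lower, and Oas1c and Oasl2 did not pass, where 25.9% of all tested genes were higher and 28.8% lower. Oas1g rose from 2.03 to 2.23 CPM over the vehicle libraries to 3.08 to 3.22 CPM with Dox (log2 fold change 0.59 ± 0.074 SE), while Oasl1 stood at 10 to 19 counts with vehicle and 23 to 30 with Dox (0.86 ± 0.23). The Oasl1 call was lost with DESeq2 (adjusted p = 0.15) and without Dox replicate 1 or 2 (edgeR adjusted p = 0.071 and 0.061).

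Isg15 did not pass the test. It encodes a ubiquitin-like protein that is attached to other proteins, and its promoter held 3 overlapping ISRE cores. It stood at 12.0, 10.3 and 12.5 CPM with vehicle and 13.4, 12.4 and 11.6 CPM with Dox, and the groups overlapped. The log2 fold change was 0.11 with a 95% interval from -0.11 to 0.33 (edgeR adjusted p = 0.36). Rsad2, which encodes the antiviral enzyme viperin and also holds an ISRE core, had only 4, 5 and 3 counts with vehicle and 5, 6 and 5 with Dox, too few to be tested. Isg15 lies on chromosome 4, 156199424 to 156200818, and Rsad2 on chromosome 12, 26442746 to 26456452, both on the minus strand. A difference of Rsad2 was not detectable at this depth.

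Usp18 showed the largest change on the log2 scale among the 9 tested genes. It encodes the protease that removes ISG15 from proteins and also blocks signalling at the type I interferon receptor. Its counts were low, 18, 20 and 34 in vehicle replicates 1, 2 and 3 and 12, 10 and 8 in Dox replicates 1, 2 and 3. Scaled to library size, these were 0.477, 0.480 and 0.656 CPM with vehicle and 0.282, 0.203 and 0.172 CPM with Dox, so that the groups were apart. Mean levels were 0.219 ± 0.0567 CPM in Dox and 0.538 ± 0.102 CPM in vehicle libraries (SD, n = 3 each), a fall of 2.48-fold. On the log2 scale the change was -1.31 ± 0.26 (SE, edgeR adjusted p = 0.0053), with a 95% interval from -1.94 to -0.68. Its exons share 124 bases with Gm44148, a noncoding gene on the opposite strand that had too few counts to be tested. Usp18 lies on chromosome 6, 121245906 to 121270917, plus strand.

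**Figure D3:**
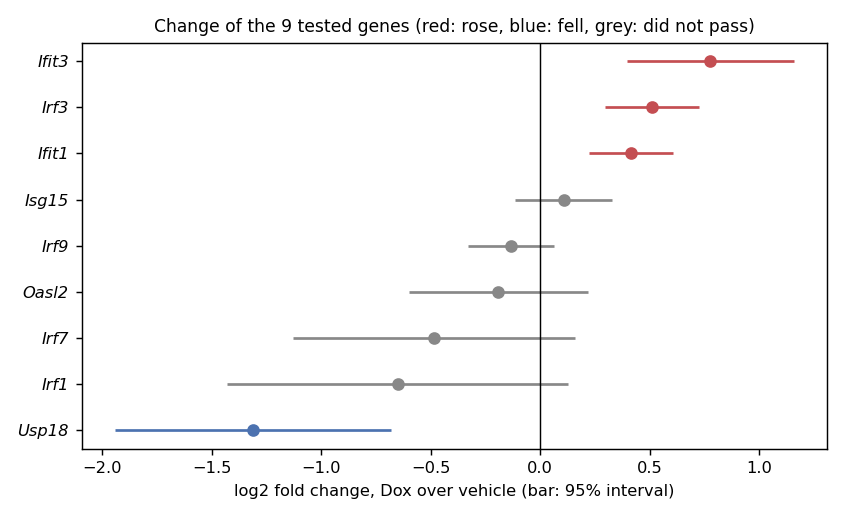
Log2 fold change of Dox over vehicle for the 9 tested genes with 95% intervals from the quasi-likelihood fit. The intervals of Ifit3, Irf3 and Ifit1 lie above 0, that of Usp18 lies below 0, and those of Isg15, Irf9, Oasl2, Irf7 and Irf1 include 0.

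Levels were compared among genes as CPM per kilobase of the longest annotated protein-coding transcript. In vehicle libraries Irf1 (15.6 ± 4.05), Isg15 (15.3 ± 1.54) and Irf3 (14.1 ± 1.54) were the most abundant (mean ± SD, n = 3), and their ranges overlapped, so that no order among them is given. Irf9 followed at 3.88 ± 0.351 and Ifit1 at 2.42 ± 0.192, each with a range apart from the next. Oasl2 was at 0.806 ± 0.177, and Usp18 (0.304 ± 0.0577) and Ifit3 (0.286 ± 0.0299) overlapped. Irf7 (0.154 ± 0.016) and Rsad2 were lowest. With Dox the order began with Irf3 (20.1 ± 1.24), followed by Isg15 (16.5 ± 1.16) and Irf1 (9.91 ± 3.59), and Ifit3 (0.489 ± 0.0586) stood above Usp18 (0.124 ± 0.032).

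In the authors' deposited table of the same comparison, 2 of the 10 genes were called, Irf3 (log2 fold change 0.50, adjusted p = 1.5e-06) and Ifit1 (0.41, adjusted p = 0.0035). The authors' deposited table calls 40.3% of the genes that have an adjusted p there, all with an adjusted p under 0.01. In the authors' deposited table Usp18 had a log2 fold change of -0.86 and an adjusted p of 0.037, and Ifit3 had 0.62 and 0.093. Both are smaller in size there than in the fit above, while Irf3 and Ifit1 are nearly the same.

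The steps around these genes were described with further gene lists. Between the type I interferon receptor and ISGF3, both receptor genes fell. Ifnar1 went from 39.8 to 45.3 CPM over the vehicle libraries to 10.2 to 10.8 CPM with Dox, a log2 fold change of -2.02 ± 0.061 (SE). Ifnar2 went from 19.8 to 20.4 CPM over the vehicle libraries to 8.25 to 9.87 CPM with Dox. The kinase genes fell as well, Jak1 by 0.97 ± 0.022 and Tyk2 by 0.47 ± 0.046 on the log2 scale (SE). The edgeR adjusted p was 2.4e-06 for Ifnar1, 4.4e-05 for Ifnar2, 1.5e-06 for Jak1 and 1.8e-04 for Tyk2. Such calls were common, with 54.7% of all tested genes called, 25.9% higher and 28.8% lower. Stat2, whose product acts with IRF9, rose by 0.28 ± 0.069 on the log2 scale (SE, edgeR adjusted p = 0.013). Irf9 itself was not called.

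Upstream of IRF3 and IRF7, 8 of 20 tested genes for nucleic acid sensors, adaptors and kinases were higher, 6 were lower and 6 did not pass. These 70.0% called stand beside 54.7% of all tested genes (25.9% higher, 28.8% lower), and the number lower was 4 to 6 over the alternatives. Their median log2 fold change was -0.042 and had no stable sign. It was 0.083 without Dox replicate 2, 0.032 without vehicle replicate 3, 0.016 without vehicle replicate 2 and -0.092 without Dox replicate 1. Leaving out vehicle replicate 1 or Dox replicate 3 gave -0.00013 and -0.0032. Upper-quartile scaling gave 0.053, the length offset 0.038 and a mean CPM of at least 5 gave 0.15. Ddx58, which encodes the RNA sensor RIG-I, fell from 20.9 to 21.1 CPM over the vehicle libraries to 6.65 to 7.15 CPM with Dox. Ticam1, which encodes the Toll-like receptor adaptor TRIF, fell by 1.73 ± 0.10 on the log2 scale (SE). Irak4, which encodes a kinase in Toll-like receptor signalling, rose by 0.63 ± 0.044 on that scale (SE). Of 21 interferon genes 7 had a row, and 1 had enough counts to be tested, Ifnz. It stood at 1.08 to 1.20 CPM with vehicle and 1.34 to 1.42 CPM with Dox (log2 fold change 0.27, edgeR adjusted p = 0.13), and passed under upper-quartile scaling (0.36, 0.037) and with the GC offset (0.48, 0.0058). Ifnb1, the interferon beta gene and a known target of IRF3, was too low to be tested, with 0.053 to 0.192 CPM over the 6 libraries.

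Among the enzymes that attach ISG15, the counterpart of the Usp18 reaction, Ube2l6 fell from 3.43 to 4.37 CPM over the vehicle libraries to 0.304 to 0.731 CPM with Dox (log2 fold change -2.82 ± 0.29 SE, edgeR adjusted p = 2.4e-04). Ube2l6 encodes the conjugating enzyme of ISG15. Herc6, the mouse ligase, was called higher (0.33 ± 0.089, adjusted p = 0.019), a call lost without vehicle replicate 1 or 3 or Dox replicate 1 or 2 (adjusted p = 0.052, 0.064, 0.053 and 0.052). Of the 4 genes of this list 1 rose, 1 fell and 2 did not pass, beside 54.7% of all tested genes called. Ube2l6 and Usp18, whose products act in attaching and removing ISG15, were thus both lower. Herc6, also of the attaching enzymes, was called higher, and Isg15 did not pass the test.

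Of the other IRF genes and the IRF2-binding proteins, 6 of 8 were tested, and 3 were lower, 0 higher and 3 did not pass, where 54.7% of all tested genes were called and 28.8% were lower. The 3 were the corepressor genes Irf2bp1, Irf2bp2 and Irf2bpl. Irf2bp1 fell from 47.1 to 49.3 CPM over the vehicle libraries to 14.8 to 16.4 CPM with Dox, while Irf2bp2 and Irf2bpl fell by 0.52 ± 0.038 and 0.45 ± 0.056 on the log2 scale (SE). Among 49 other interferon-stimulated genes tested, 20 were higher, 6 lower and 23 did not pass. The 53.1% called is near the 54.7% of all tested genes (25.9% higher, 28.8% lower). The median log2 fold change was 0.17, and 0.26 without vehicle replicate 1. With upper-quartile scaling 25 were higher and 5 lower, and with the length offset 22 and 3. The smallest p-values among called genes of this list were those of Eif2ak2, which encodes the RNA-activated kinase PKR and fell by 1.00 ± 0.042, Shisa5, which fell by 0.92 ± 0.050, and Samd9l, an antiviral gene that rose by 0.68 ± 0.043 (log2 scale, SE).

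**Figure D4:**
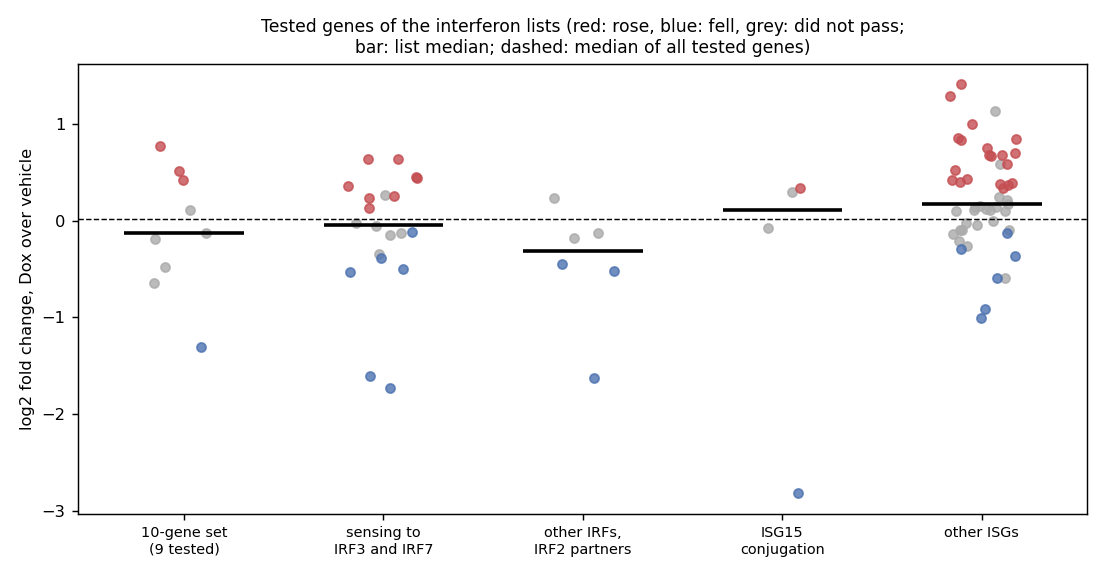
Log2 fold change of Dox over vehicle for each tested gene of the 10-gene set and of 4 interferon lists; points are genes, bars list medians and the dashed line the median of all tested genes, 0.018. The lowest point, at -2.82, is Ube2l6, while the other interferon-stimulated genes lie on both sides, 20 higher and 6 lower.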

How the data were processed

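RNA sequencing was analysed for 6 libraries. GRCm38, HISAT2 2.1.0, StringTie 1.3.3, FastQC 0.11.3 and DESeq2 are named, without role or order, in the submitters' processing notes. How strand and multi-mapped reads were handled, and with which gene annotation, is not given in the sources used here. Some named genes of the lists share exonic bases with a neighbour. On the same strand Herc6 shares 1269 with Gm45193 and Ifnar2 shares 315 with Gm21970. On the opposite strand Irf2bp2 shares 1039 with Gm26759, Tyk2 554 with 1700084C06Rik and Irak4 395 with Twf1. The part of these neighbours in the counts was not tested. Whole-number counts per gene symbol were deposited by the authors, and also, per the file headers, a table of Dox against vehicle with a mean normalized signal, log2 fold change and its error, a test statistic (score), p-value and adjusted p-value.

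Columns were matched to samples by the labels' descriptions. Genes were filtered with filterByExpr (18067 of 29493 left), scaled by TMM and fitted by edgeR 4.0.16 in R 4.3.3 (glmQLFit, glmQLFTest). All 6 libraries entered and the model held the treatment alone. P-values were adjusted by Benjamini and Hochberg's method over all genes tested and called under 0.05. A standard error is the size of the log2 fold change divided by √F. CPM use TMM-scaled library sizes. The common biological coefficient of variation was 12.0%. No permutation test was made, as 3 against 3 cannot give less than p = 0.1. No library was a duplicate of another (chi-square over its degrees of freedom 11.1 to 13.8 between replicates). The fit was tested on simulated data.

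All 10 symbols matched GENCODE M21. The 10 genes and the 6 lists were chosen with earlier results of these data known. The genes named were the 10, Klf13, up to 3 called genes with the smallest p of each list (or the most abundant tested gene), and Stat2, Ifnar1 and Jak1. Tyk2 was named after its values were seen, and 1 further gene is not reported here. Ifit and Oas relatives, Bcl2l12 and Phrf1 were added after seeing values. The alternatives comprised scaling by upper quartile or by DESeq2 size factors, the Wald test of DESeq2 1.42.0, limma-voom (limma 3.58.1), no filter, mean CPM of at least 5, a replicate block, an adjusted p of 0.01, offsets for transcript length and GC content, and leaving out each library.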

Additional observations from a re-analysis of the deposited data

How the results depend on the processing

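Irf3 and Ifit1 were called higher under all 16 alternatives, with log2 fold changes of 0.43 to 0.64 and 0.35 to 0.51. Usp18 was called lower under the 15 alternatives that kept it (-1.51 to -1.13). With mean CPM of at least 5, neither Usp18 nor Ifit3 was tested and 0 of the 10 genes were lower. Ifit3 was called in 14 of 15 alternatives, DESeq2's Wald test being the exception. Irf9, Isg15, Oasl2 and Irf7 were called under none of the alternatives that tested them. No tested gene of the set changed sign in an alternative, but Oasl2 was at -0.0048 without vehicle replicate 1. Leaving out 1 library gave 3 higher and 1 lower in all 6 fits.

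With the replicate number as a block, 2 of the 10 genes were lower, the added one being Irf1 (log2 fold change -0.69, edgeR adjusted p = 0.0098). Replicate numbers were treated as names only. Deviations from the group mean correlated at 0.069, 0.052 and -0.094 between libraries that share number 1, 2 or 3 (14635 genes), and numbers 2 and 3 correlated best with each other. Over all genes 9890 were called, 47.4% of them higher, and upper-quartile scaling gave 58.4% higher. The share of tested genes called was 31.6% with no filter. Few counts, at most 45 in any library, limit what can be seen for Usp18, Ifit3, Irf7 and Rsad2.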
